A study of Sus scrofa with 10 samples.

Results

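The swine MHC class II genes were followed in the ovaries of gilts. The 8 genes were SLA-DRA, SLA-DRB1, SLA-DQA1 and SLA-DQB1, which encode the chains of the DR and DQ molecules, SLA-DMA and SLA-DMB, CD74, and CIITA. They were chosen by gene symbol among the 19972 protein-coding loci of a table of 43499 loci. The symbol alone found 5 of them. The other 3, SLA-DRA, SLA-DRB1 and SLA-DQA1, are named HLA-DRA or by Ensembl identifiers in the table and were matched by the NCBI gene identifier in its description column.

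RNA-seq of whole ovary, taken after the surface follicles had been removed, was available from 10 gilts, with 1 library per pig. All 10 had received altrenogest, a progestin that keeps gilts from coming into oestrus, in the feed (20 mg daily, 18 days, beginning at 210 days old), and then had 2 days without it. The 5 pigs of the rpFSH treatment group were then given 1000 IU of recombinant pig follicle-stimulating hormone, and the 5 pigs of the control group saline. At collection the pigs were 234 days old. The study asked how the hormone changes ovarian expression. Levels are given in FPKM, read fragments scaled to transcript length and library size, and pigs are named by group and number as in the labels.

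MHC class II molecules are pairs of an alpha and a beta chain that carry peptides from proteins taken up by a cell to its surface, where CD4 T cells read them. The invariant chain (CD74) holds the new molecule until it reaches the endosome, and the DM molecule (SLA-DMA with SLA-DMB) helps to exchange the remaining piece of invariant chain for a peptide. CIITA is the transactivator that switches the set on, in professional antigen-presenting cells such as dendritic cells, macrophages and B cells, and in other cells under interferon-gamma.

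Of the 8 loci, 6 lay within 313 kb of chromosome 7 of the Sscrofa11.1 build. SLA-DRA lay at 24825011 to 24830844 on the plus strand and SLA-DRB1 at 24830958 to 24914037 on the minus strand. This SLA-DRB1 locus was 83080 bp long, whereas the RefSeq gene starts at 24901386, so that the assembled locus reaches well beyond the gene. It carries both Ensembl identifiers ENSSSCG00000031336 and ENSSSCG00000001455, so that the value called SLA-DRB1 below may hold reads of more than this gene. SLA-DQB1 lay at 24939676 to 24977270 on the minus strand and SLA-DQA1 at 24951495 to 24984948 on the plus strand. Both DQ loci also reached well beyond their RefSeq genes, 24969034 to 24977238 (SLA-DQB1) and 24953472 to 24959313 (SLA-DQA1), which do not overlap. The assembled DQ loci overlapped by 25.8 kb on opposite strands. Whether strand was used in counting is not stated, so that reads of the shared stretch cannot be assigned with certainty. DR and DQ genes also have close copies, and how the counting divided reads among those is not stated. SLA-DMB lay at 25119278 to 25125106 and SLA-DMA at 25133494 to 25137963, both on the minus strand. CIITA lay on chromosome 3, at 32172214 to 32230526 on the minus strand.

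The CD74 locus, on chromosome 2 at 151399969 to 151433914 on the minus strand, was merged in the table with RPS14, which encodes a protein of the small ribosomal subunit. Its value cannot be divided between the genes and is called CD74-RPS14 below. The table held 2 short further loci named CD74, with between 33 and 91 and between 141 and 407 counts per pig, and a locus named DEXI and CIITA together with between 406 and 670 counts. None of these 3 passed a test of a difference between the groups (two-sided exact permutation test, p = 0.992, 0.325 and 0.667). Their r with SLA-DRA over the 10 pigs was 0.22, 0.11 and 0.03, given as a description.

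Total counts per pig were between 64873797 and 75114003. A member had between 265 and 21662 counts in a pig, which gives a relative error of at most 6.14% from counting alone. All 8 passed the filter on low values, a mean of at least 0.1 FPKM, and so were among the 15170 protein-coding loci tested. Of the ovarian cell markers, CYP11A1, the enzyme that starts steroid synthesis, had a mean of 284 FPKM and FSHR, the receptor of the hormone given, 3.62 FPKM. The 7 steroidogenic markers found, these 2 among them, summed to between 18.2 and 2630 FPKM in control pigs (median 99.3). In rpFSH pigs they summed to between 17.3 and 1637 FPKM (median 117). The mean of CYP11A1 was above both medians, so that it is not a typical level.

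No MHC class II gene passed the test of a difference between the groups. With edgeR's quasi-likelihood test, 0 of the 8 were called by the rule of the study, an unadjusted P under 0.05 with a fold change of at least 2 between the group means, beside 473 of the 15170 loci tested (3.12%). By an adjusted p under 0.05, 0 of the 8 were called, beside 0 of the 15170 loci (0.0%), of which 717 had an unadjusted P under 0.05. DESeq2 called 86 loci by adjusted p and limma called 0, none of them among the 8. The FPKM of the groups overlapped for 8 of 8, and did not overlap for 95 of the 15170 loci (0.626%). In these whole-tissue samples, fewer cells of a type and less RNA per cell cannot be told apart. Levels ranged widely from pig to pig in both groups.

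SLA-DRA, the alpha chain of DR and the most abundant member, had 27.9, 73.6, 17.4, 18.5 and 39.5 FPKM in control pigs 1 to 5. In rpFSH pigs 1 to 5 it had 17.8, 16.4, 53.0, 69.2 and 43.4 FPKM. Each group held low and high pigs, and the ranges almost coincided. The group means were 35.4 ± 23.1 and 39.99 ± 22.8 FPKM (SD, n = 5 each), and the log2 fold change was 0.25 (SE 0.49, 95% interval -0.84 to 1.34).

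SLA-DRB1, its beta chain, had 3.58, 13.5, 2.95, 2.49 and 5.54 FPKM in control pigs 1 to 5. In rpFSH pigs 1 to 5 it had 2.23, 3.19, 6.71, 9.61 and 7.70 FPKM. Control pig 2 was the highest of all 10, and stood apart from the other controls. The log2 fold change was 0.14 (SE 0.53, 95% interval -1.02 to 1.31).

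SLA-DQA1, the alpha chain of DQ, had 14.5, 35.3, 9.41, 11.11 and 25.4 FPKM in control pigs 1 to 5. In rpFSH pigs 1 to 5 it had 7.18, 7.35, 20.5, 35.4 and 19.9 FPKM. The highest pigs of the groups, control 2 and rpFSH 4, had nearly the same level. SLA-DQA1 had a log2 fold change of -0.01 (SE 0.49, 95% interval -1.10 to 1.09).

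SLA-DQB1, the partner of SLA-DQA1, had 9.64, 17.6, 5.25, 7.997 and 11.7 FPKM in control pigs 1 to 5. In rpFSH pigs 1 to 5 it had 7.91, 3.53, 10.1, 26.2 and 10.8 FPKM. The rpFSH pigs held both the lowest and the highest of the 10 values, 7.42-fold apart, the widest range of any member. The log2 fold change was 0.23 (SE 0.47, 95% interval -0.81 to 1.27).

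SLA-DMA, the alpha chain of the peptide exchanger, had 4.14, 10.5, 2.46, 2.68 and 5.999 FPKM in control pigs 1 to 5 and 2.55, 2.94, 7.83, 7.57 and 4.66 FPKM in rpFSH pigs 1 to 5. The group means of SLA-DMA were 5.15 ± 3.30 and 5.11 ± 2.50 FPKM (SD, n = 5 each), with a log2 fold change of 0.07 (SE 0.46). SLA-DMB had 4.48, 7.79, 2.88, 2.81 and 6.16 FPKM in control pigs and 2.39, 3.10, 6.52, 9.87 and 5.92 FPKM in rpFSH pigs, in the same order. Control pigs 3 and 4 and rpFSH pigs 1 and 2 were the lowest 4 of the 10 for each of the DM genes. The log2 fold change of SLA-DMB, 0.28 (SE 0.41, 95% interval -0.63 to 1.20), was the highest among the 8.

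CIITA, the transactivator, was the lowest member, with 1.09, 2.59, 0.691, 1.19 and 2.16 FPKM in control pigs 1 to 5 and 1.12, 1.20, 1.92, 3.04 and 1.06 FPKM in rpFSH pigs 1 to 5. Again control pig 2 and rpFSH pig 4 led their groups. The log2 fold change of CIITA was 0.19 (SE 0.40, 95% interval -0.69 to 1.07). CD74-RPS14 had 20.7, 20.1, 16.5, 22.4 and 20.1 FPKM in control pigs and 14.7, 19.7, 22.3, 22.9 and 18.9 FPKM in rpFSH pigs, in the same order. It was the flattest of the 8, with control pig 2 in the middle of its group. Its log2 fold change was 0.06 (SE 0.16, 95% interval -0.28 to 0.40).

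**Figure D1:**
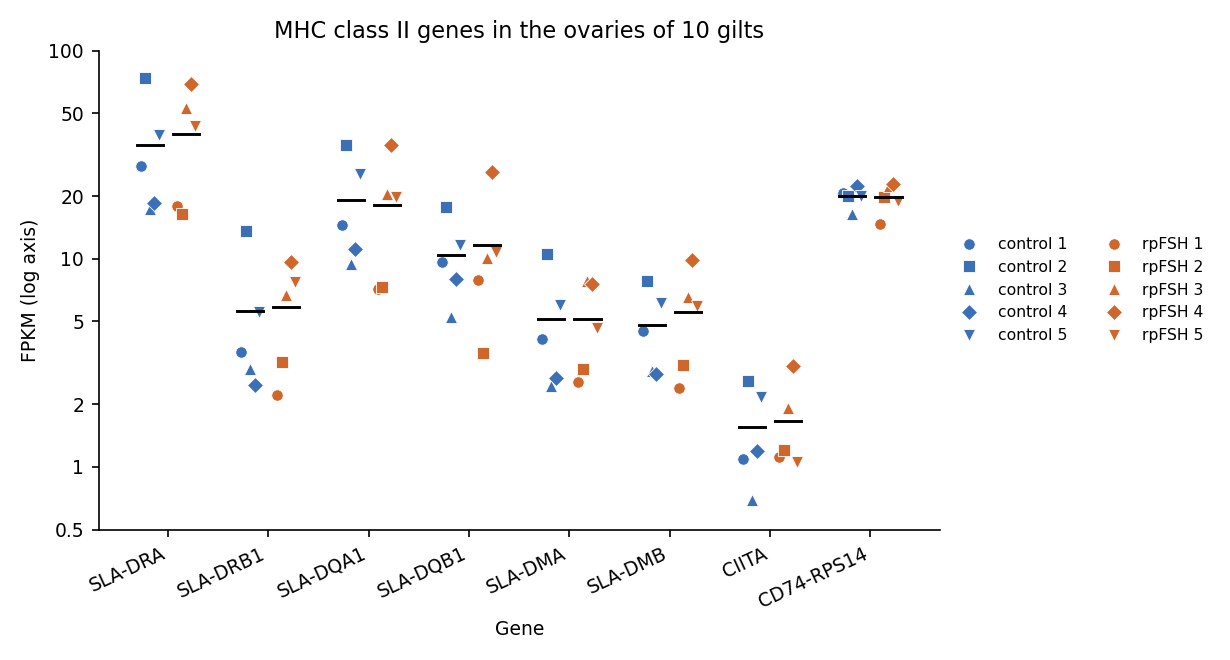
FPKM (log axis) of each gene in each pig, with controls in blue and rpFSH pigs in orange, symbols for the pig number and a black line at the group mean. The groups overlap for all 8 genes, and control 2 (squares, blue) and rpFSH 4 (diamonds, orange) are both among the highest 3 pigs for 7 genes; for CD74-RPS14 rpFSH 4 is the highest and control 2 is not among the highest 3.

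Adjusted p was 1.00 for each of the 8 genes. The median log2 fold change of the 8 was 0.16 and that of all 15170 loci -0.01. Above 0 were 7 of the 8 and 48.3% of all loci. The log2 ratio of group mean FPKM was below 0 for SLA-DQA1 (-0.083), SLA-DMA (-0.012) and CD74-RPS14 (-0.017). The sign thus differed between counts and FPKM for SLA-DMA and CD74-RPS14. Most of these genes also moved together across pigs, as given below, so that their signs are not separate observations. Two-sided exact permutation tests of log2 (FPKM + 1), member by member, gave p between 0.754 (SLA-DMB) and 1.00 (SLA-DQB1), where the smallest possible p was 0.00794. For the 7 genes other than CD74-RPS14 the 95% intervals reached above a log2 change of 1, so that 2-fold higher levels under rpFSH lay within them. For CD74-RPS14 a change of 2-fold in either direction lay outside the interval. Without control pig 2 the log2 fold change of SLA-DRA was 0.71 (edgeR, adjusted p = 0.934) and that of SLA-DRB1 was 0.77 (edgeR, adjusted p = 0.914), the smallest P and adjusted p of any member in the 22 settings tried. Without rpFSH pig 4 the same changes were -0.02 and -0.09.

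**Figure D2:**
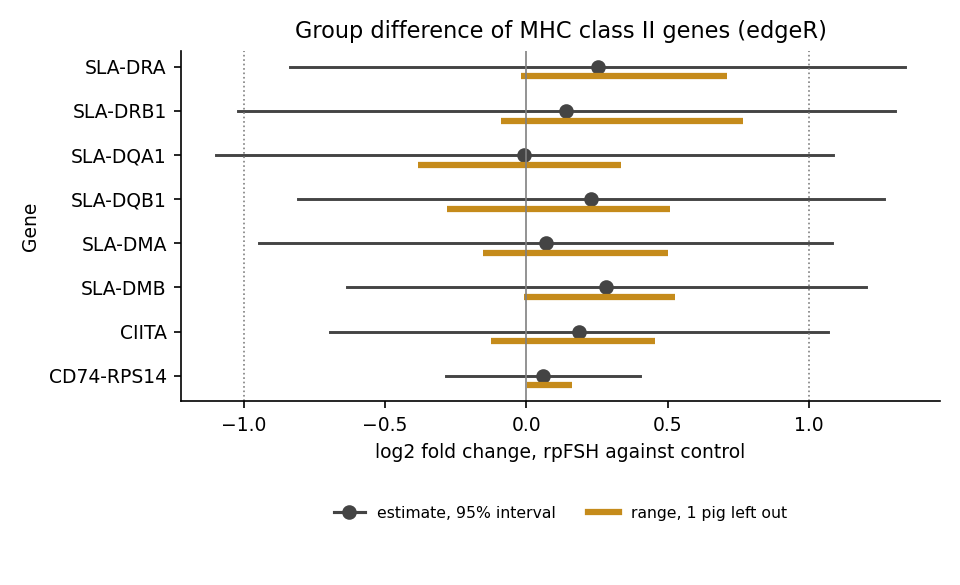
Log2 fold change of rpFSH against control from edgeR for each gene (points, with 95% intervals as dark lines), and the range of the estimate when each pig in turn was left out (yellow bars). All 8 intervals include 0, and the yellow bars of 7 genes cross it; that of CD74-RPS14 stops at 0.0014.

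Between pigs, the highest level was between 4.13 and 7.42 times the lowest for the 7 genes, but 1.56 times for CD74-RPS14. The SD of log2 (FPKM + 1) of SLA-DRA was larger than that of 95.5% of the 11315 protein-coding loci with a mean of at least 1 FPKM. The same share was 95.3% for SLA-DQA1, 93.8% for SLA-DRB1 and 93.5% for SLA-DQB1. It was 90.1% for SLA-DMA, 87.9% for SLA-DMB, 73.7% for CIITA and 26.1% for CD74-RPS14. The chains of DR and DQ were thus among the more variable genes over these 10 ovaries. Control pig 2 and rpFSH pig 4 were among the highest 3 pigs for 7 of the 7 genes, and control pig 3 was among the lowest 3 for 7 of 7 and rpFSH pig 1 for 6 of 7.

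**Figure D3:**
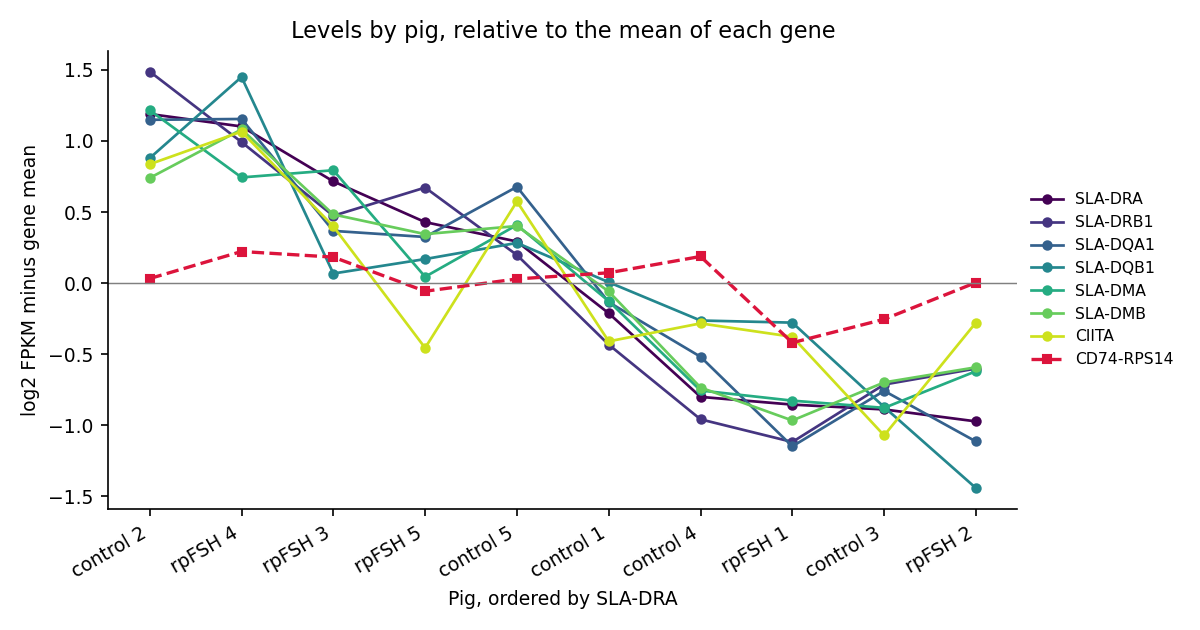
Log2 FPKM of each gene minus its mean over the 10 pigs, with the pigs ordered along the axis by their SLA-DRA level. The 7 solid lines fall together from control 2 and rpFSH 4 to rpFSH 2, control 3 and rpFSH 1, while the dashed line of CD74-RPS14 stays close to 0.

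The 7 genes rose and fell together across pigs. All 21 of the pairs they form correlated with an adjusted p under 0.05 over the 28 pairs of the 8 genes (log2 (FPKM + 1), 100000 permutations, n = 10), with Pearson's r between 0.77 and 0.97 and a median of 0.90. The weakest was SLA-DRB1 with CIITA (r = 0.77, rho = 0.56, permutation p = 0.0110, adjusted p = 0.0146; rho adjusted p = 0.121). The strongest was SLA-DRA with SLA-DMB (r = 0.97, rho = 0.87, permutation p = 4e-05, adjusted p = 0.000224). Spearman's rho, between 0.56 and 0.95, passed for 17 of 21 pairs, and the 4 that did not each involved CIITA. Partner chains moved closely, with r = 0.96 for SLA-DRA with SLA-DRB1 (rho = 0.88), 0.90 for SLA-DQA1 with SLA-DQB1 (rho = 0.95) and 0.94 for SLA-DMA with SLA-DMB (rho = 0.93), each past the adjusted threshold in both measures. By r, partners were not closer than other pairs. SLA-DRA had r = 0.97 with SLA-DMB and with SLA-DMA, and SLA-DQA1 had r = 0.96 with SLA-DMB and with SLA-DRA. By rho, SLA-DQA1 with SLA-DQB1 and SLA-DRB1 with SLA-DMB shared the highest value, 0.95.

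The relation held within the groups and with any 1 pig left out. Within the groups, after the group means were removed, r was between 0.77 and 0.99 and 21 of 21 pairs passed (exact permutation within groups). With any 1 pig left out, 21 of 21 pairs passed and the lowest r was 0.70. Without the 2 pigs farthest from the median of the first gene, r was between 0.51 (SLA-DRB1 with CIITA) and 0.98, with a median of 0.88. The pigs left out were control 2 and rpFSH 4 for the pairs with SLA-DRA or SLA-DRB1 first. In the other pairs at least 1 of these 2 high pigs stayed in. CIITA, the regulator of the set, had r of 0.77 to 0.87 and rho of 0.56 to 0.75 with the other 6. Among the pairs without it, the lowest r was that of SLA-DRB1 with SLA-DQB1 (r = 0.78, rho = 0.84). CD74-RPS14 passed in 0 of its 7 pairs (r between 0.44 and 0.60, rho between 0.41 and 0.62, smallest permutation adjusted p = 0.0848). Without control pig 4 it passed in 5 of 7, and without any other single pig in 0.

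The order of levels was SLA-DRA (37.7 FPKM, mean of 10), CD74-RPS14 (19.8), SLA-DQA1 (18.6), SLA-DQB1 (11.07), SLA-DRB1 (5.75), SLA-DMB (5.19), SLA-DMA (5.13) and CIITA (1.61). FPKM is per length of the assembled transcripts, so that the overlong SLA-DRB1, SLA-DQA1 and SLA-DQB1 loci bear on the places of these genes. The same holds for the merged CD74-RPS14 locus, whose place is not that of CD74 alone. It had between 13966 and 21662 counts in a pig, above the 1981 to 9348 of SLA-DRA, the reverse of their order in FPKM. In 24 of the 28 pairs the gene with the higher mean was also higher within pigs (two-sided exact sign-flip test, adjusted p under 0.05), and for 28 of 28 pairs the mean log2 ratio had the same sign in both groups. Among neighbours in this order 4 of 7 differed. SLA-DRA exceeded CD74-RPS14 in 8 of 10 pigs (exact p = 0.0215, adjusted p = 0.0251), SLA-DQA1 exceeded SLA-DQB1 in 9 of 10 (exact p = 0.00391, adjusted p = 0.00497), and SLA-DQB1 exceeded SLA-DRB1 in 10 of 10 (exact p = 0.00195, adjusted p = 0.00260). SLA-DMA exceeded CIITA in 10 of 10 pigs with the same exact p of 0.00195, the smallest that 10 pigs allow. CD74-RPS14 and SLA-DQA1 (exact p = 0.232), SLA-DRB1 and SLA-DMB (exact p = 0.701), and SLA-DMB and SLA-DMA (exact p = 0.566) did not differ beyond their spread.

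The balance of the genes within a pig is a further measure, since a level that all of them share cancels in a ratio. The ratio of SLA-DRA to SLA-DRB1 lay between 5.16 and 8.01 in all 10 pigs although SLA-DRA itself varied 4.47-fold, and its mean log2 was 2.74 in each group (SD 0.22 and 0.29, n = 5 each, two-sided exact permutation p = 1.00). SLA-DMA to SLA-DMB lay between 0.766 and 1.35. SLA-DQA1 to SLA-DQB1 lay between 1.35 and 2.18 in 9 pigs and was 0.907 in rpFSH pig 1. The overlong SLA-DRB1 and DQ loci and the merged CD74-RPS14 locus bear on the size of every ratio that holds one of them. This includes SLA-DQA1 to SLA-DRA below. CIITA to SLA-DRA lay between 0.0244 and 0.0729, with the groups mixed.

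SLA-DQA1 relative to SLA-DRA was the ratio whose groups were farthest apart. It was 0.52, 0.48, 0.54, 0.60 and 0.64 in control pigs 1 to 5 and 0.40, 0.45, 0.39, 0.51 and 0.46 in rpFSH pigs 1 to 5. Of the controls, 4 of 5 were above every rpFSH pig, and 4 of 5 rpFSH pigs were below every control. The mean log2 ratio was -0.85 ± 0.17 in control and -1.19 ± 0.16 in rpFSH (SD, n = 5 each), a difference of -0.33 (exact permutation p = 0.0159). It did not hold after adjustment over the 6 ratios (adjusted p = 0.0952, exact permutation). The other 5 ratios had an adjusted p of 1.00 by the same exact test.

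**Figure D4:**
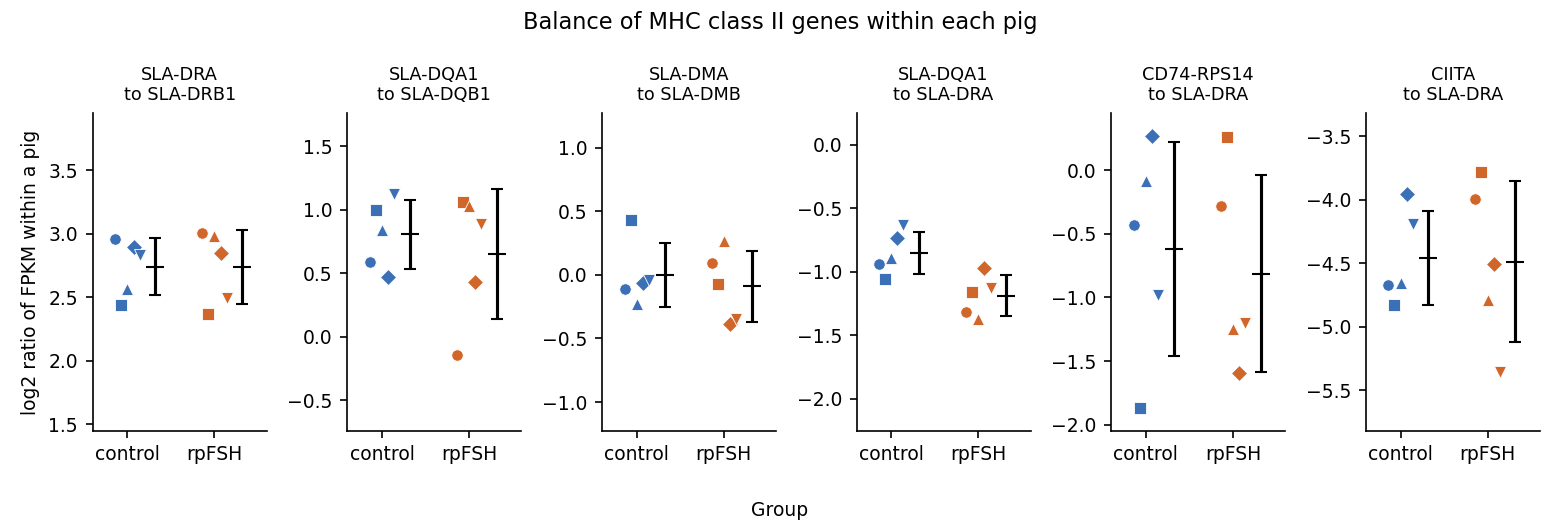
Log2 ratio of FPKM within each pig for the 6 ratios, by group, with symbols for the pig number as in the plot of levels and bars for the mean and SD of 5 pigs; each panel spans the same 2.5 log2 units. SLA-DQA1 to SLA-DRA sits lower in rpFSH pigs (-1.19 against -0.85), and SLA-DRA to SLA-DRB1 has the same mean, 2.74, in both groups.

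Marker lists of cell types were used to see what moved with the class II genes. Each list was summed up as its mean log2 (FPKM + 1) in a pig, and all 72 pairs of a class II gene and a list were tested together (Pearson's r, 100000 permutations, n = 10). Of these, 30 passed an adjusted p under 0.05, and 20 did with Spearman's rho. The macrophage list (12 genes, among them CSF1R, CD163 and the C1Q genes) passed with 7 of the 8 genes, with r between 0.82 (CIITA) and 0.97 (SLA-DRA) and rho between 0.60 and 0.95, and by rho with 6. It passed with 6 genes without rpFSH pig 4 and with 7 without any other pig. Without control 2 and rpFSH 4, the pigs farthest from its median, these r were between 0.59 (CIITA) and 0.95 (SLA-DRA). Its summed level ran from 51.5 to 91.8 FPKM in control and from 45.6 to 84.2 FPKM in rpFSH pigs. The largest part of this sum was CD68 (mean 29.8 FPKM), which shared a locus with EIF4A1, a general translation factor. Within the list, MARCO was listed at the floor of the table in all rpFSH pigs, and its highest control value was 0.148 FPKM.

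The B cell list passed with the same number of genes, 7 of 8 (r between 0.73 and 0.92, rho between 0.73 and 0.96). Its defining markers MS4A1, PAX5 and CD79B were near 0, with means of 0.0242, 0.0476 and 0.0818 FPKM, and its largest member, CD79A, shared a locus with ARHGEF1 (3.36 FPKM). With markers in such shared loci left out, chosen after seeing the data, the B cell list passed with 4 genes, the macrophage list with 7 and the T cell list with 6. The dendritic cell list, whose markers had means under 0.7 FPKM, passed with 5 genes, and its lowest r among the 7 genes was 0.69, or 0.09 when control 2 and rpFSH 4 were left out. LAPTM5 led the leukocyte list (10.1 FPKM), ZBTB46 the dendritic cell list (0.681 FPKM), and LCK, in a locus shared with HDAC1, the T cell list (5.06 FPKM). The endothelial list (led by VWF with 22.7 FPKM; also PECAM1, CDH5, TEK, KDR and EMCN) passed with 5 genes, the general leukocyte list with 3 and the T cell list with 3. Without the 2 pigs farthest from the median of each score, r with the 7 genes was 0.87 to 0.97 for the B cell, 0.68 to 0.93 for the endothelial, 0.52 to 0.89 for the T cell and 0.45 to 0.67 for the leukocyte list. With 1 pig left out the counts ran from 6 to 8 for the B cell, 4 to 6 for the endothelial, 2 (without rpFSH 4) to 7 for the dendritic cell, 2 to 6 (without rpFSH 3) for the T cell, and 0 (without rpFSH 1) to 4 for the leukocyte list. Without control 3 or rpFSH 3 or 4 the leukocyte list passed with 1 gene, and without control 4 or 5 or rpFSH 5 with 2; the T cell list passed with 2 without control 2, 3 or 4 or rpFSH 1, 2 or 4. Within groups the dendritic and T cell lists each passed with 7 genes, and by rho with 2 and 0.

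Lists of the epithelial, steroidogenic and stromal markers passed with 0 of the 8 genes, by either measure. Between groups, the macrophage score was 1.96 ± 0.32 in control and 1.96 ± 0.41 in rpFSH (SD, n = 5 each, exact permutation p = 0.992). None of the 9 list scores passed a test of the group difference (exact permutation p of 0.0714 or above). The epithelial score had the lowest p, with 1.85 ± 1.00 in control and 0.96 ± 0.12 in rpFSH. It was 2.86 in control 2 and 2.98 in control 5, but 0.92 to 1.43 in the other controls, against 0.75 to 1.03 in rpFSH pigs. Over all 15170 loci, 473 (3.12%) were called by the rule of the study, 401 of them lower. Of the 6 tested epithelial genes, 5 were called lower by this rule. These were MAL2 (log2 fold change -1.90, SE 0.45; 5.08 FPKM, the highest of the list), EPCAM (-2.54, SE 0.99), KRT8 (-2.46, SE 0.97), KRT18 (-3.60, SE 1.47) and CDH1 (-1.98, SE 0.77). Of the stromal list, led by COL3A1 with 527 FPKM, 1 gene was called lower, LUM (log2 fold change -1.51, SE 0.52). None of these 6 had an adjusted p under 0.05 with edgeR. The epithelial score did not pass with any of the class II genes (r between 0.37 and 0.53 for the 7, n = 10, adjusted permutation p of SLA-DRA 0.378). Without the 2 pigs farthest from the median of each score, r with the 7 genes was -0.26 to 0.08 for the epithelial list. It went from between -0.15 and 0.18 to between 0.28 and 0.48 for the steroidogenic list, and from between -0.47 and -0.09 to between 0.10 and 0.64 for the stromal list. The part of these cell types in the pig-to-pig levels was not tested beyond these correlations.

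**Figure D5:**
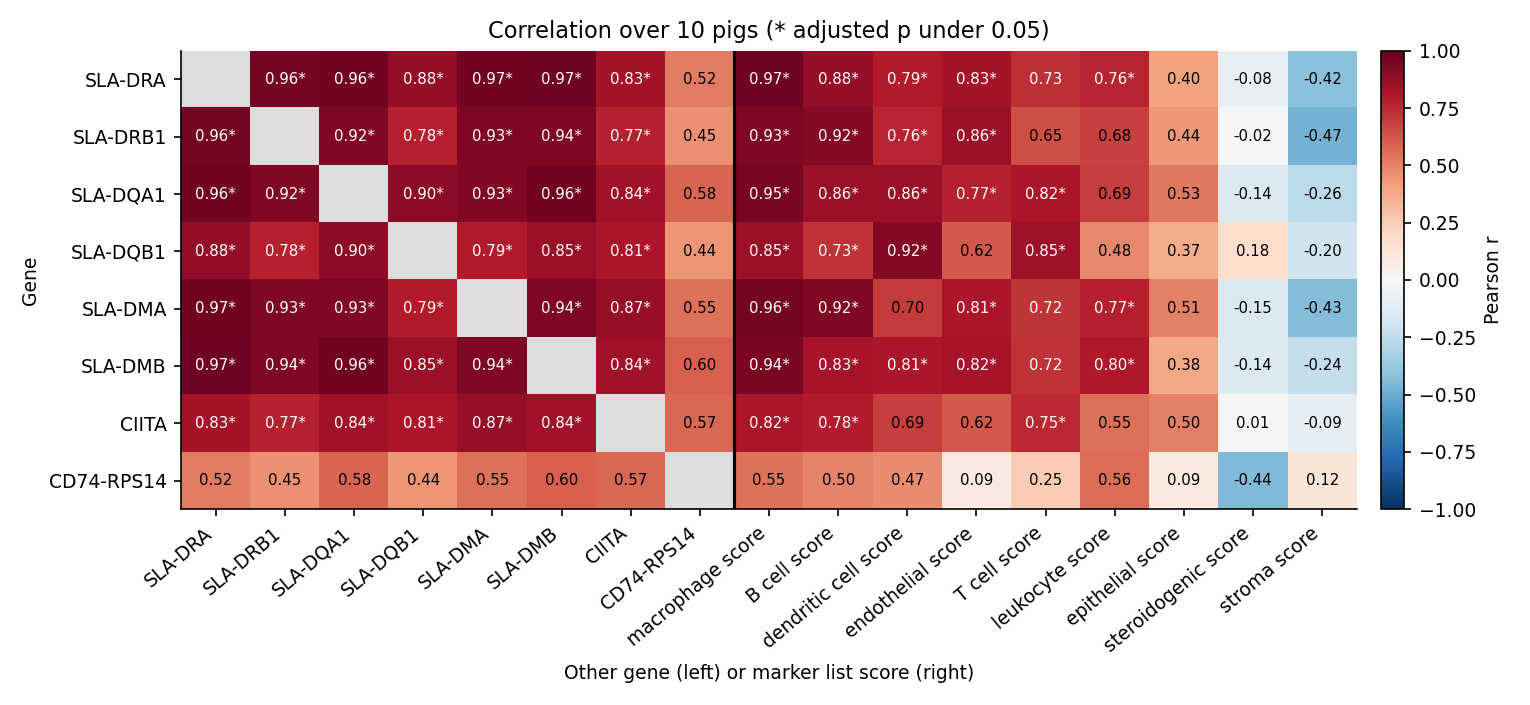
Pearson's r over 10 pigs of each gene with the other genes (left of the line) and with the marker list scores (right), with an asterisk where the adjusted p was under 0.05; blank squares are a gene with itself. The 7 genes form a block of r of 0.77 or more. Their r is 0.82 to 0.97 with the macrophage score and 0.73 to 0.92 with the B cell score, with 7 asterisks each. The dendritic cell and endothelial scores have 5 asterisks each, and the T cell and leukocyte scores 3 each. With the steroidogenic and stromal scores the r of the 7 genes is -0.47 to 0.18, while CD74-RPS14 has no asterisk.

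Other genes of the pathway were taken from 5 lists, of which 49 genes were tested and 0 were called by the rule of the study. Over all 15170 loci tested, 473 (3.12%) were called and 48.3% had a log2 fold change above 0. Whether the lists differ from these shares was not tested. Of the factors that bind class II promoters with CIITA (RFX5, RFXAP, RFXANK, the NFY subunits, CREB1 and ZXDC), 4 of 8 had a log2 fold change above 0 and the median was -0.05. The highest level was that of NFYA (5.52 FPKM), and the widest difference that of CREB1 (log2 fold change 0.29, SE 0.24). Of the interferon-gamma route to CIITA, 8 of 8 tested genes were above 0, with a median of 0.19. SOCS1, an inhibitor of the route, had a log2 fold change of 0.81 (SE 0.59). IFNG itself was at the floor of the table in all rpFSH pigs, at most 0.0202 FPKM in controls, and was not tested.

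Of the genes of class II processing and turnover, 8 of 15 were above 0 and the median was 0.04. CD63, an endosomal tetraspanin, was the most abundant (147 FPKM). The protease CTSL had the widest difference (log2 fold change -1.29, SE 1.11). CTSS, the protease that trims the invariant chain in many antigen-presenting cells, shared a locus with ARNT, which had 10.9 ± 0.88 FPKM in control and 15.2 ± 5.34 FPKM in rpFSH (SD, n = 5 each, log2 fold change 0.55, SE 0.23). It met the unadjusted P of the rule but not its fold change. Of the class I presentation genes, 6 of 11 were above 0 (median 0.07), and of the costimulation genes 6 of 7 (median 0.16). CALR led the class I list with 128 FPKM, and PSMB9, a subunit of the immunoproteasome, had its widest difference (log2 fold change -0.48, SE 0.58). PDCD1LG2 led the costimulation list with 1.52 FPKM, and ICOSLG had a log2 fold change of 0.33 (SE 0.25).

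The stretch of chromosome 7 from SLA-DRA to SLA-DOA, 358 kb long, held 9 other protein-coding loci. SLA-DOA and HLA-DOB (SLA-DOB), the chains of the DO molecule that holds DM back, had 0.598 and 0.660 FPKM and a mean r with the 8 genes of 0.84 and 0.74. PSMB8, TAP1, PSMB9 and TAP2, genes of class I presentation, had a mean r of 0.79, 0.67, 0.67 and 0.65. BRD2, a bromodomain gene between SLA-DMA and SLA-DOA, had 12.2 FPKM and a mean r of -0.22. These values are descriptions over 10 pigs of the same libraries. Some of the loci overlap as assembled: HLA-DOB with SLA-DQA1 and ENSSSCG00000001458, and PSMB8 with TAP1, TAP2 and PSMB9. Reads of the shared stretches may enter more than 1 value. A high mean r was not particular to this stretch, as the loci across the genome given below show. The loci called by Ensembl identifier ENSSSCG00000001458 and ENSSSCG00000030885 had a mean r of 0.75 and, for the second, no value, since it was listed at the floor in every pig.

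Across all 11307 other protein-coding loci with a mean of at least 1 FPKM, the mean r with the 8 genes had a median of -0.02 and was 0.8 or more for 24. The 5 highest were NMI (0.88), an interferon-induced gene, a locus named FOLR1 that the table describes as folate receptors (0.87), DOCK2 (0.85), a leukocyte regulator of cell migration, MINDY2 (0.84), a deubiquitinase, and RNF135 (0.84), a ubiquitin ligase of RNA sensing. Over the 10 pigs NMI lay between 2.49 and 5.22 FPKM, the FOLR1 locus between 4.83 and 11.5, and DOCK2 between 0.497 and 1.68.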

How the data were processed

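Deposited values were used for 10 ovary libraries, 5 per group. Per the methods, the authors ran Cutadapt for trimming, Hisat2 with Bowtie2 for mapping (Sscrofa11.1), StringTie for assembly, and StringTie with Ballgown for FPKM. The submitters' processing notes name HISAT2 2.0, Bowtie 0.12.2 and StringTie 1.3.0. The table's floor is 0.0001 FPKM. The authors also deposited counts per locus and pig, and how these were made is not stated. The methods describe rRNA removal and HiSeq, the labels poly(A) selection and NovaSeq.

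Counts of 15170 protein-coding loci with a mean of at least 0.1 FPKM were tested with edgeR 4.0.16 (quasi-likelihood, TMM, Benjamini-Hochberg over all loci) in R 4.3.3, in place of Ballgown. Alternatives were DESeq2 1.42.0, limma 3.58.1 on log2 (FPKM + 1 or + 0.1), other scalings and filters, a block for the replicate number, and fits with pigs left out. Single values were tested by two-sided exact permutation, correlations with 100000 permutations (seed 1), in Python 3.11.15. On simulated counts for this comparison with 200 of 15170 loci changed by a log2 of 2, edgeR recovered 78.0%, with 4.88% unchanged ones among its calls. DESeq2 recovered 87% with 25% unchanged ones among its calls, and limma 75.5% with 6.79%. All 8 members were named, and other genes by list, as the highest level, any call, or the widest differences, or as the 5 most alike. Members and lists were chosen with earlier results of these data known. SLA-1, SLA-2, SLA-3, ITGAX, CR2, CLDN5, KRT19 and LHCGR were not matched in the table and not analysed here, and 1 gene the rule would name is not reported here.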

Additional observations from a re-analysis of the deposited data

Results flagged for a closer look

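The members' FPKM and the within-pig log2 ratios were searched by Dixon's ratio (limit 0.71) for a pig far from its group, in 28 groups of 5 pigs. Of such groups chance alone picks out about 1 in 20 where values are normally distributed. There were 2 such values, both of control pig 2. SLA-DRB1 was 13.5 FPKM in this pig, with the next control at 5.54 and the lowest at 2.49. Its Dixon's ratio was 0.724, taken on FPKM without a log, and this flag depends on that scale. The log2 ratio of SLA-DMA to SLA-DMB was 0.43 in this pig, with the next control at -0.04 and the lowest at -0.22. Control pig 2 was also the highest control pig for SLA-DRA, SLA-DQA1, SLA-DQB1, SLA-DMA, SLA-DMB and CIITA, and was not the highest for CD74-RPS14.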

How the results depend on the processing

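Of the 8 genes, 0 were called by either rule in any of the 22 settings. The number of loci called by the rule of the study was 172 and 236 with limma on log2 (FPKM + 1) and log2 (FPKM + 0.1), 146 with a mean of at least 1 FPKM, and 372 to 571 with 1 pig left out, against 473. By adjusted p it was 86 with DESeq2 and 0 to 1 with 1 pig left out, against 0. With the replicate number as a block, 194 loci were called by the rule of the study and 0 by adjusted p. Same-numbered pigs did not deviate together (pooled r of -0.14, from -0.41 to 0.11), so the numbers were not taken as pairs. Several of the small log2 fold changes changed sign. CD74-RPS14 was -0.025 and -0.027 with limma at the 2 pseudocounts, SLA-DQB1 -0.011 with limma at 0.1 and -0.0080 without both control 2 and rpFSH 4 (chosen after seeing the data), and SLA-DQA1 0.0078 and 0.0075 with upper-quartile factors and library totals. With 1 pig left out the ranges were -0.018 to 0.71 (SLA-DRA), -0.088 to 0.77 (SLA-DRB1), -0.38 to 0.33 (SLA-DQA1), -0.28 to 0.51 (SLA-DQB1), -0.15 to 0.50 (SLA-DMA), -0.0078 to 0.53 (SLA-DMB), -0.13 to 0.45 (CIITA) and 0.0014 to 0.16 (CD74-RPS14). The total numbers of pairs of genes, ratios, and pairs of a gene with a list past their thresholds stayed within 1.5 times of those reported in every setting run for them, while the counts of single lists and of CD74-RPS14 moved more, as given with them. The order of levels could not be tested within a group, where 5 pigs allow no p below 0.0625. With 5 pigs a group and this spread, the intervals of 7 genes include 2-fold changes.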
